A study of Mus musculus with 120 samples.

Results

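B6-Chr4MSM is a mouse strain in which chromosome 4 of the inbred strain MSM stands on the background of C57BL/6J (B6), and its liver transcripts were set against those of B6. Its arrays were taken by their strain label, which gave 4 of the 120 arrays of the series and 2 of its 60 males, and 2 males on 4 arrays represented B6. The series covers 30 strains with 2 males each: 28 chromosome substitution (consomic) strains, MSM itself and B6. All were males of 10 weeks, untreated apart from a fast of 4 h before the liver was taken. MSM was used as the donor of the chromosome, and the 27 other consomic strains carry other MSM chromosomes, parts of them, or MSM mitochondrial DNA, with chromosome 4 from B6. These 27 strains and B6, with 56 males in all, served as a second reference. The exact ends of the MSM segment and the number of backcrosses were not given in the sources used here.

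A consomic strain carries 1 chromosome pair of a donor on the background of a host strain. A gene on the substituted chromosome then has the donor's own coding and regulatory sequence, while a gene elsewhere keeps the host's sequence. Such a gene can differ through products of the substituted chromosome or donor segments left elsewhere. It can also differ for reasons unrelated to the substitution. Mouse chromosome 4 holds the Cyp4a and Cyp2j clusters of fatty acid oxygenases, the major urinary protein (Mup) cluster and the orosomucoid genes, which are all active in hepatocytes.

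Each value is the deposited log2 signal of a probe set, averaged over the 2 arrays of a male. The spread between males of a strain was 5.95e-05 log2 units for the median gene, so a difference in deposited signal is not a fold change, and its size cannot be compared between genes. Sizes are therefore also given in residual SDs, the spread between males of a strain for the same gene. Of 1087 chromosome 4 genes with a probe set, 758 passed the filter on dim signal, and 11191 genes elsewhere passed it. Genes are called here when limma's p, adjusted by Benjamini-Hochberg over 11949 genes, was below 0.05. Hepatocyte markers were present: all 13 with a probe set passed the filter. The median difference between the Chr4 strain and B6 was 0.125 SDs on chromosome 4 and 0.186 SDs elsewhere. Over all tested genes scaled to unit spread, arrays of the 2 Chr4 males correlated at -0.000471 to 0.419 across genes, and arrays of the 2 B6 males at 0.268 to 0.476. The 2 arrays of the same male correlated at 0.29 to 0.362 in the Chr4 strain and at 0.228 to 0.59 in B6. Arrays of the Chr4 strain correlated with arrays of B6 at -0.318 to 0.47, which overlaps these ranges.

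The sequences upstream of 3 genes with large reductions are shown first, because in the Chr4 strain these stretches come from MSM, while the letters printed are those of the reference genome. Each is the 250 bases before the annotated start in RefSeq's GRCm38.p6, written 5′ to 3′ on the strand of the gene. Fggy lies on the plus strand (chr4:95557257-95557506, the first of 2 listed starts), and Mup3 (chr4:62087318-62087567) and C8a (chr4:104876399-104876648) lie on the minus strand. Capitals mark 1 short motif in each, chosen after these sequences were seen.
Fggy: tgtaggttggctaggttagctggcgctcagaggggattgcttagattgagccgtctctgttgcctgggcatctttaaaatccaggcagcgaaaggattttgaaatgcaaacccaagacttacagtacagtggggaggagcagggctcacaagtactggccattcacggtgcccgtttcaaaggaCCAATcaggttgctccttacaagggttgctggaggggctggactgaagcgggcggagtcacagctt
Mup3: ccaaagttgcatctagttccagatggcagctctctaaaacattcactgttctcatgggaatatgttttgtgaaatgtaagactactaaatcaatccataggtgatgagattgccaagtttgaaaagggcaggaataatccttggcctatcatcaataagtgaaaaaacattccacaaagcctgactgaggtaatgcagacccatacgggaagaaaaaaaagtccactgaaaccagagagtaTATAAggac
C8a: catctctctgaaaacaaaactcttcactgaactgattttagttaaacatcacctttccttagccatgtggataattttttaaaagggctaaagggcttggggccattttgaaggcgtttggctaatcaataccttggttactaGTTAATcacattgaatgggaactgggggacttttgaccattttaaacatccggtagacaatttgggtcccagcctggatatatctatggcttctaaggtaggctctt
The letters CCAAT begin 66 bases upstream of the start of Fggy, TATAA begins 9 bases upstream of that of Mup3, and GTTAAT begins 107 bases upstream of that of C8a. Searched on both strands, CCAAT occurred in 33.8% of 32851 windows of the same length, TATAA in 22.8% and GTTAAT in 6.4%. A match describes these letters only, and the bases at which MSM differs were not analysed here.

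The Chr4 strain differed from B6 mainly at genes of chromosome 4. There 67 of 758 tested genes were called, or 8.84%, against 14 of 11191 elsewhere, or 0.125%; over all genes 0.678% were called. On chromosome 4, 22 genes were higher and 45 were lower in the Chr4 strain, where the shares over all genes were 0.218% higher and 0.46% lower. In each of the 67 genes both Chr4 males lay beyond both B6 males, which was so for 52.8% of all genes. The 67 genes were chosen by the difference between these same males, so this separation was nearly fixed in advance. With the unadjusted p below 0.05, 185 chromosome 4 genes and 952 genes elsewhere passed, 9.52% of all genes. On these arrays a base difference of MSM under a probe and a changed transcript level cannot be told apart, and in whole liver fewer cells of a type and less RNA per cell cannot be told apart either. Without B6 male 1 or 2 the chromosome 4 count was 34 or 35, and without Chr4 male 1 or 2 it was 34 or 38. With quantile normalization, which moved the median difference of all genes to 3.19 SDs, it was 43, of which 20 were higher and 23 lower. That setting gives a probe set the same value on every array if its rank does not change, and can then show no difference. In a fit on the 2 strains alone, with no other males to share the spread, it was 1.

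**Figure D1:**
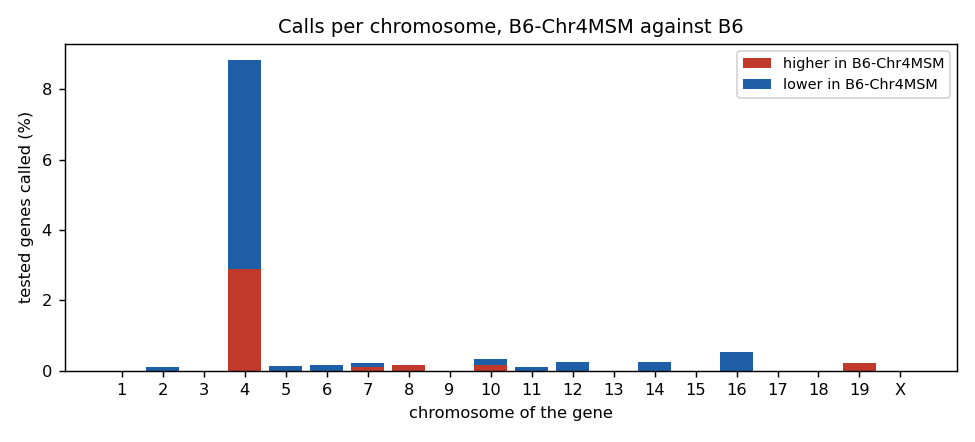
Percentage of tested genes called in the Chr4 strain against B6 (y axis) by the chromosome of the gene (x axis), split into genes higher and lower in the Chr4 strain. Chromosome 4 stands at 8.84%, and no other chromosome exceeds 0.531%.

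Against the 56 males with B6 chromosome 4, 103 chromosome 4 genes were called, or 13.6%, with 32 higher and 71 lower. Elsewhere 32 genes were called, or 0.286%. Over all genes the shares were 1.13% in either direction, 0.36% higher and 0.77% lower. All 67 chromosome 4 genes called against B6 were also called here in the same direction, as were 6 of the 14 elsewhere; over all genes 0.611% were called against both, 0.192% higher and 0.418% lower. The comparisons share the 2 Chr4 males and the 2 B6 males. Both Chr4 males lay beyond all 56 males, on 1 side, at 105 chromosome 4 genes (13.9%) and at 45 genes elsewhere (0.402%), where the share of all genes was 1.26%. Of the 67 called genes, 60 met this condition.

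Cyp4a14, a fatty acid ω-hydroxylase that PPARA induces, was lower in the Chr4 strain. It read 7.71 and 7.69 in the Chr4 males, 7.45 and 8.16 in the MSM males, and 9.68 and 9.38 in the B6 males. Both strains with MSM chromosome 4 lay below all 56 males with B6 chromosome 4, which spanned 8.84 to 9.90. The difference between Chr4 and B6 was -1.83 ± 0.224 (SE, n = 2 males each, limma adjusted p = 5.7e-06, or -8.11 SDs). Of the 4 tested genes in the list of the Cyp4a family, it was the single one called, where 8.84% of all chromosome 4 genes were. Cyp4a12a, an arachidonic acid hydroxylase of male liver, read 8.88 and 8.93 in the Chr4 males and 8.90 and 8.86 in the B6 males, and these ranges overlap (limma adjusted p = 0.981). Cyp4a31 and Cyp4b1 were not called either (limma adjusted p = 0.942 and 0.699).

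The Cyp2j cluster, whose enzymes epoxidise arachidonic acid, had 2 of 3 tested genes called, and both were lower, where 5.94% of all chromosome 4 genes and 0.46% of all genes were called lower. Cyp2j6 read 7.5491 and 7.5490 in the Chr4 males, 7.5498 and 7.5505 in the MSM males, and 7.5633 and 7.5626 in the B6 males. No Chr4 or MSM male reached the lowest of the 56 males with B6 chromosome 4, at 7.5566. The difference was -0.0139 ± 0.00145 (SE, n = 2 males each, limma adjusted p = 4.2e-07), and a second probe set of the gene was lower as well (-0.0130, adjusted p over all probe sets 5.94e-07). Cyp2j5 read 11.0604 and 11.0605 in the Chr4 males and 11.0632 and 11.0631 in the B6 males, again without overlap. Its difference was -0.00271 ± 0.00041 (SE, n = 2 males each, limma adjusted p = 0.000126), and with quantile normalization the limma adjusted p was 0.199. The second probe set of Cyp2j5 differed by -0.00284 and was not called (adjusted p over all probe sets 0.0639). Cyp2j9 read 7.75695 and 7.75695 in the Chr4 males and 7.75711 and 7.75708 in the B6 males, with limma adjusted p = 0.783.

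Of 3 tested major urinary proteins, which carry pheromones into urine and are made in male liver, only Mup3 was called, beside 8.84% of all chromosome 4 genes. Its signal was 9.28 and 9.31 in the Chr4 males, 9.26 and 9.27 in the MSM males, and 9.65 and 9.68 in the B6 males. All 4 males with MSM chromosome 4 lay below the 56 others, whose lowest was 9.44. The difference from B6 was -0.375 ± 0.0406 (SE, n = 2 males each, limma adjusted p = 7e-07). Mup genes are near-identical copies, so which copies this probe set reads is uncertain. Mup10 read 9.01 and 9.04 in the Chr4 males and 9.01 and 8.99 in the B6 males (limma adjusted p = 0.973), and Mup5 was also not called (limma adjusted p = 0.987).

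Fggy, a carbohydrate kinase of the FGGY family, had the largest difference in SDs of any chromosome 4 gene. It read 7.675 and 7.671 in the Chr4 males, 7.671 and 7.672 in the MSM males, and 7.856 and 7.848 in the B6 males. The 56 males with B6 chromosome 4 lay between 7.825 and 7.859, so the groups were wide apart. The difference was -0.179 ± 0.00633 (SE, n = 2 males each, limma adjusted p = 2.03e-19, or -28.01 SDs), with -0.170 against the second reference. Efhd2, a calcium-binding adaptor protein, read 9.085 and 9.083 in the Chr4 males, 9.087 and 9.099 in the MSM males, and 9.162 and 9.155 in the B6 males. No male of the second reference was as low, the lowest being 9.149. Its difference was -0.0743 ± 0.0106 (SE, n = 2 males each, limma adjusted p = 5.24e-05). The other probe set of Efhd2 differed by -0.00223 and was not called (adjusted p over all probe sets 0.627).

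**Figure D2:**
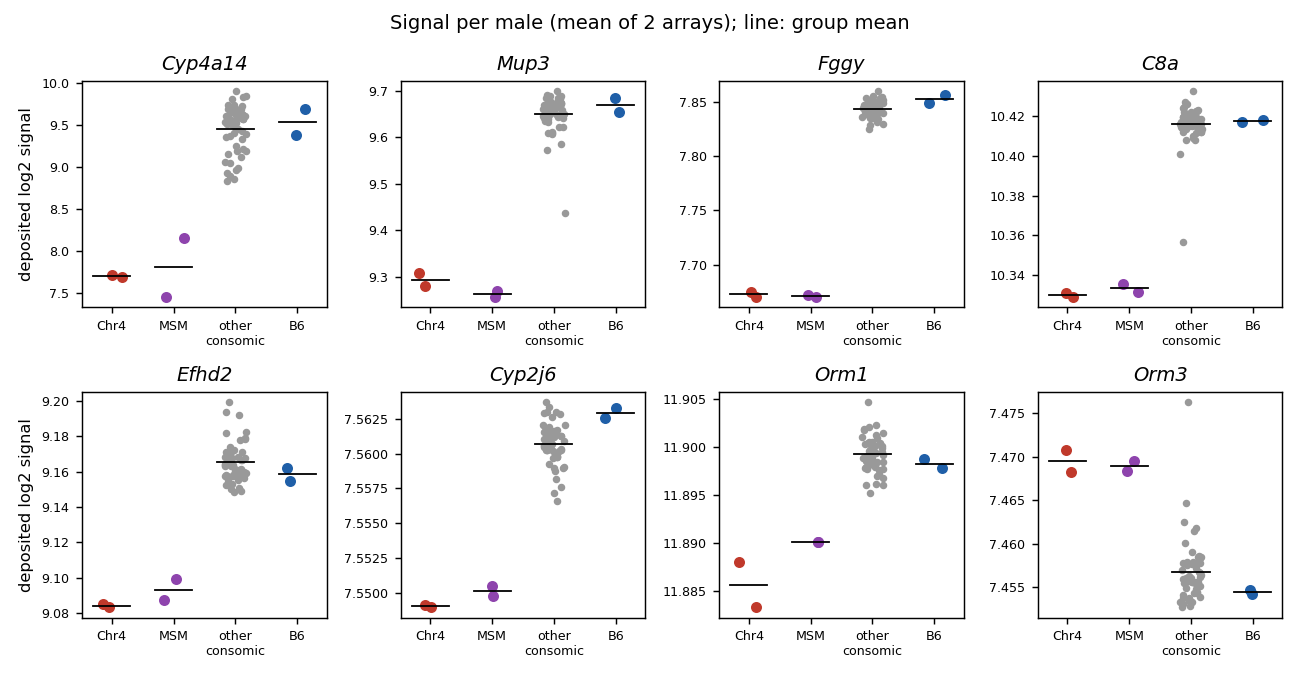
Deposited log2 signal (y axes, each with its own range) of 8 chromosome 4 genes in each male of the Chr4 strain, MSM, the 27 other consomic strains and B6; points are males and lines are group means. The Chr4 and MSM males sit together and apart from B6 in all 8 genes, lower in 7 and higher in Orm3.

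Among 11 tested chromosome 4 genes for plasma proteins, 3 were lower and 1 was higher, beside 5.94% lower and 2.9% higher among all chromosome 4 genes. This list was chosen with earlier results of these data known. C8a encodes the α chain of complement component C8, part of the membrane attack complex. It read 10.329 and 10.331 in the Chr4 males, 10.335 and 10.332 in the MSM males, and 10.418 and 10.417 in the B6 males. All 56 males with B6 chromosome 4 lay higher, though 1 of them, at 10.357, was nearer to the Chr4 strain than the rest. The difference was -0.0873 ± 0.00835 (SE, n = 2 males each, limma adjusted p = 7.62e-08).

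The orosomucoids, acute phase proteins that bind lipophilic molecules, lie side by side and moved in opposite directions. Orm1 read 11.883 and 11.888 in the Chr4 males, 11.890 and 11.890 in the MSM males, and 11.898 and 11.899 in the B6 males. Its difference was -0.0126 ± 0.00168 (SE, n = 2 males each, limma adjusted p = 1.86e-05). Orm3 read 7.468 and 7.471 in the Chr4 males, 7.468 and 7.469 in the MSM males, and 7.455 and 7.454 in the B6 males. Both Chr4 males were above both B6 males, but the highest of the 56 males, at 7.476, was above them. The difference of Orm3 was 0.0152 ± 0.0032 (SE, n = 2 males each, limma adjusted p = 0.0115), and without any 1 of the 4 males the adjusted p was 0.0733 to 0.239. Orm2 read 7.498 and 7.513 in the Chr4 males and 7.545 and 7.555 in the B6 males and was called against the second reference only (limma adjusted p = 0.0485, and 0.63 against B6). These genes are close paralogs, so a probe set may read more than 1 of them. Ambp, the precursor of α1-microglobulin and bikunin, differed by -0.000229 ± 5.13e-05 (SE, n = 2 males each, limma adjusted p = 0.0202). Whether the rank of Ambp changed between arrays was not examined, so quantile normalization may be unable to show a difference for it. Without any 1 of the 4 males the adjusted p of Ambp was 0.154 to 0.239, and with quantile normalization it was 1.

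Of 28 tested genes in the list of chromosome 4 lipid and energy metabolism, 27 of them on that chromosome, 5 were lower and none was higher against B6 (limma), while 2 were higher against the second reference. Among all chromosome 4 genes 5.94% were called lower against B6, and among all tested genes 0.46%. The list was chosen with earlier results of these data known, so its count is not independent of them. Its called members include the kinase Tesk2 and Errfi1, an inhibitor of a growth factor receptor. The median of the list was 0.737 SDs, beside 0.185 SDs for all tested genes; with quantile normalization it was 0.165 SDs, beside 3.19 SDs for all tested genes. Prkaa2, the α2 catalytic subunit of AMP-activated protein kinase, read 9.3253 and 9.3249 in the Chr4 males, 9.3207 and 9.3201 in the MSM males, and 9.3413 and 9.3369 in the B6 males. The Chr4 males were below all 56 males with B6 chromosome 4, whose lowest was 9.3329. The difference was -0.0140 ± 0.00292 (SE, n = 2 males each, limma adjusted p = 0.0105), and the call was lost without B6 male 1 (0.383), Chr4 male 1 (0.109) or Chr4 male 2 (0.151). The other probe set of Prkaa2 differed by -0.00192 and was not called (adjusted p over all probe sets 0.487). Baat, which conjugates bile acids to taurine or glycine, read 10.2024 and 10.2020 in the Chr4 males, 10.2012 and 10.2009 in the MSM males, and 10.2042 and 10.2046 in the B6 males. The 2 Chr4 males were below the B6 males and above the MSM males. Both comparisons passed, at -0.00221 against B6 and 0.00115 against MSM (limma adjusted p = 0.000313 and 0.0199). Tesk2, a dual-specificity kinase, read 7.52297 and 7.52293 in the Chr4 males and 7.52747 and 7.52751 in the B6 males (limma adjusted p = 3.44e-06). It was also the single chromosome 4 gene called in a fit restricted to the 2 strains. Faah, which hydrolyses fatty acid amides, differed by -0.00115 (limma adjusted p = 0.0101), and its call was lost in every fit that left out 1 male. The other probe set of Faah differed by -7.3e-05 and was not called (limma adjusted p over all probe sets 0.512).

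Errfi1, a feedback inhibitor of the epidermal growth factor receptor, was the single one of the 67 called chromosome 4 genes whose difference had the other sign in MSM. It read 12.7086 and 12.7079 in the Chr4 males, 12.7101 and 12.7106 in the MSM males, and 12.7101 and 12.7101 in the B6 males. The Chr4 males were below the males of both other strains, and 1 of them was below all 56 males, whose lowest was 12.7080. The differences were -0.00188 from B6 and -0.00212 from MSM (limma adjusted p = 0.0131 and 0.000258). A second probe set of Errfi1 differed from B6 by -0.0305 (adjusted p over all probe sets 0.000151). For the first probe set, a change of rank between arrays was not examined, so quantile normalization may be unable to show a difference. Without B6 male 1, B6 male 2 or Chr4 male 2 the adjusted p against B6 was 0.177, 0.133 and 0.432, and with quantile normalization it was 1.

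Other reductions on chromosome 4 fell on genes of several functions. Ddx58, the cytosolic RNA sensor RIG-I, was the single one called among 24 tested genes of the interferon response, where 0.46% of all genes were called lower. In that list 3 genes, all lower, had an unadjusted limma p below 0.05, beside 9.52% of all genes in either direction. The list median was -0.796 SDs, beside 0.185 SDs for all tested genes. With quantile normalization it was -0.296 SDs, beside 3.19 SDs. Ddx58 read 8.0436 and 8.0435 in the Chr4 males, 8.0442 and 8.0434 in the MSM males, and 8.0475 and 8.0478 in the B6 males. The difference was -0.00417 ± 0.000579 (SE, n = 2 males each, limma adjusted p = 3.67e-05), and the lowest of the 56 males, at 8.0451, stood above both Chr4 males. Manea, a Golgi endo-mannosidase, differed by -0.00527 (limma adjusted p = 9.15e-06), and Cibar1, a BAR domain protein, by -0.0114 (limma adjusted p = 1.74e-05). Prxl2b, a prostaglandin F synthase, differed by -0.0151 from B6 and by -0.00765 from MSM (limma adjusted p = 0.00172 and 0.0441); its call against B6 was lost without B6 male 2 (0.0541) or Chr4 male 1 (0.0749). Gm13306, a predicted gene next to Ccl27a, differed by -0.00691 (limma adjusted p = 0.0131), and its call was lost in every fit that left out 1 male.

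The 22 genes that were higher had a median difference of 5.4 SDs, from 4.12 to 8.46, and the 45 lower genes had a median of -5.51 SDs, from -28.01 to -4.01. These values describe genes chosen by that same contrast. Nmnat1, the nuclear enzyme of NAD synthesis, had the largest positive difference in SDs. It read 8.1891 and 8.1889 in the Chr4 males, 8.1889 and 8.1888 in the MSM males, and 8.1877 and 8.1878 in the B6 males. Both Chr4 males lay above all 56 males, whose highest was 8.1880. The difference was 0.00128 ± 0.00015 (SE, n = 2 males each, limma adjusted p = 3.24e-06), while the other probe set of Nmnat1 was not called (adjusted p over all probe sets 0.688). Ptgr1, which inactivates leukotriene B and prostaglandins, read 7.9308 and 7.9312 in the Chr4 males, 7.9327 and 7.9317 in the MSM males, and 7.9266 and 7.9266 in the B6 males. The Chr4 and B6 males did not overlap, but the highest of the 56 males, at 7.9326, was above both Chr4 males. The difference was 0.00438 ± 0.000914 (SE, n = 2 males each, limma adjusted p = 0.0103). Without any 1 of the 4 males, the adjusted p of Ptgr1 was 0.085 to 0.183.

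Tmem82, a membrane protein, read 8.4145 and 8.4145 in the Chr4 males, 8.4157 and 8.4155 in the MSM males, and 8.4129 and 8.4130 in the B6 males. The Chr4 strain lay between the parental strains and differed from both, by 0.00158 from B6 and -0.00111 from MSM (limma adjusted p = 1.74e-05 and 0.000197). Rere, a transcriptional corepressor, lay between them as well, at 0.00216 from B6 and -0.00159 from MSM (limma adjusted p = 0.00216 and 0.00404). The other probe set of Rere differed from B6 by 0.000105 and was not called (limma adjusted p over all probe sets 0.616). The call of Rere against B6 was lost without B6 male 2 (0.089) or Chr4 male 1 (0.127). Gpbp1l1, a GC-rich promoter-binding protein, and its neighbour Tmem69 were higher by 0.00207 and 0.000502 (limma adjusted p = 9.76e-05 and 0.000196). Further probe sets of Tmem69 were not called (limma adjusted p over all probe sets 0.562 and 0.982). Zfp691, a zinc finger protein, was higher by 0.000595 (limma adjusted p = 0.000133, and 0.155 with quantile normalization).

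Further probe sets were tested for 23 of the 67 genes. Of these 30 probe sets, 6 were called in the same direction, none was called in the opposite direction (limma), and 24 were not called, of which 20 had the same sign. The other 44 genes had a single tested probe set.

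Called genes were spread along the chromosome, from position 2 to position 757 of the 758 tested genes in their order. With that order split into 5 equal stretches, 14, 22, 15, 3 and 13 genes were called against B6, and 20, 29, 24, 10 and 20 against the second reference. The widest stretch between neighbouring called genes was 100 positions, between AU040320 and Rsrp1. Within it, 4 genes were called against the second reference (S100pbp, Rbbp4, Sdc3 and Extl1), and 39 genes were called in MSM against the 27 other consomic strains, 30 of which had the same sign in the Chr4 strain. Of 11 pairs of adjacent called genes, 9 had the same direction, where 45 of the 67 called genes were lower. Whether 9 exceeds what that split alone gives was not tested. The longest run was Cibar1, Otud6b, Pip4p2 and Necab1, all lower. Necab1 was near the threshold (limma adjusted p = 0.0481, and 0.0565 when adjusted over all probe sets). The genes named here by position were picked out after their values were seen.

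**Figure D3:**
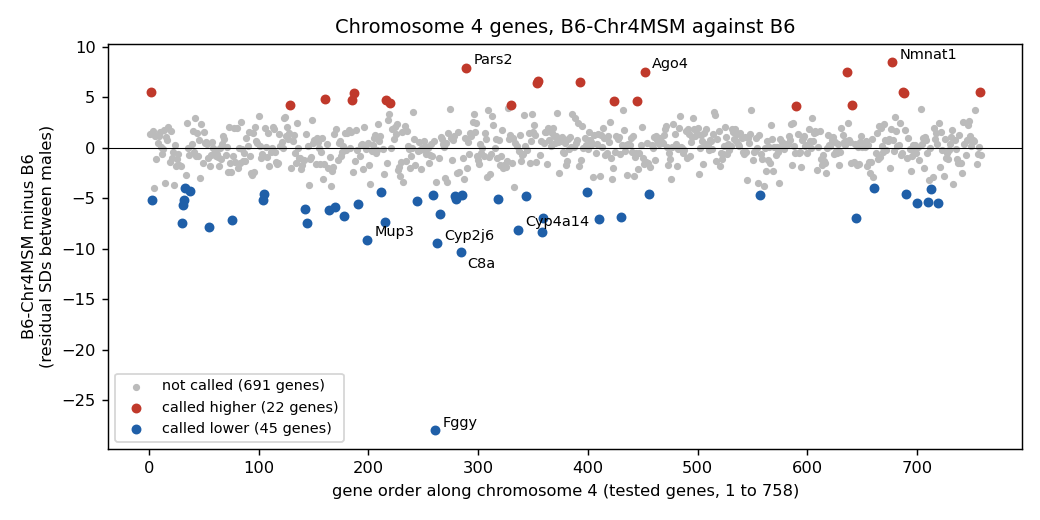
Difference between the Chr4 strain and B6 in residual SDs (y axis) for the 758 tested chromosome 4 genes in their order along the chromosome (x axis), with genes called higher and lower in colour. Called genes occur along the whole length, and Fggy stands lowest at -28.01 SDs.

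The MSM males gave a comparison with no male in common with the one above, MSM against the 27 other consomic strains. MSM carries MSM alleles at every chromosome, and 355 chromosome 4 genes were called there (46.8%, with 200 higher and 155 lower), beside 4797 elsewhere; the shares over all genes were 43.1% in either direction, 25.7% higher and 17.4% lower. Of the 67 genes called in the Chr4 strain, 66 had the same sign in MSM, 62 were called in the same direction and none in the opposite one (limma). In 52 of the 67, both MSM males lay beyond all 56 males on the same side, where the share of all genes was 16.1%. Taken from the MSM side, 290 of the 355 chromosome 4 genes (81.7%) had the same sign in the Chr4 strain against B6, and 62 (17.5%) were called there. Against the second reference, 91 of the 355 were called in the same direction in the Chr4 strain. That reference shares the 27 other consomic strains with the MSM comparison. Elsewhere 2781 of 4797 genes (58.0%) had the same sign against B6, and 9 were called in the same direction. The differences in SDs correlated over 758 chromosome 4 genes with Spearman's rho 0.589 and Pearson's r 0.741, and over 11191 genes elsewhere with 0.132 and 0.12. Genes are not independent replicates, and both differences are divided by the same residual SD. With scaled median centring the MSM calls on chromosome 4 split into 136 higher and 201 lower.

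**Figure D4:**
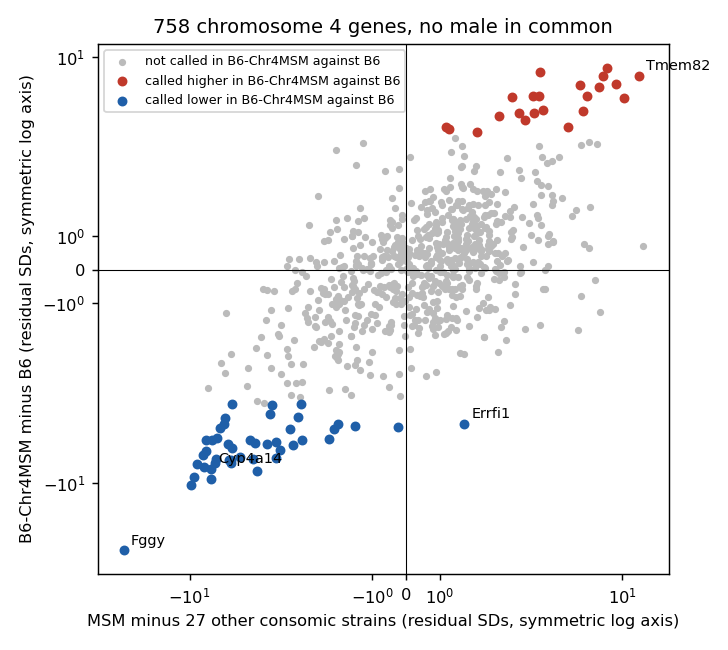
Difference between the Chr4 strain and B6 (y axis) against the difference between MSM and the 27 other consomic strains (x axis), both in residual SDs on symmetric logarithmic axes that are linear near 0, for 758 chromosome 4 genes. Of the 67 coloured genes, 66 lie in the lower left or upper right corner region and Errfi1 lies in the lower right.

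Set directly against MSM, the Chr4 strain differed at 74 chromosome 4 genes (9.76%, with 18 higher and 56 lower) and at 2273 genes elsewhere (20.3%). Over all genes the shares were 19.6% in either direction, 8.64% higher and 11% lower. Of the 67 genes called against B6, 9 differed from MSM and 58 were not called different from it. Without Chr4 male 1 or 2 the chromosome 4 count was 42 or 20, and without Chr4 male 2 the count elsewhere was 1178. With scaled median centring, 31 chromosome 4 genes were higher and 30 lower, and elsewhere 1334 were higher and 942 lower, beside 1014 and 1259 as deposited. Some chromosome 4 genes were called in MSM against the 27 other consomic strains and not in the Chr4 strain against B6, so the references differ. Against the same B6 males, MSM was called for Plk3 (limma adjusted p = 0.001) but not for C1qb (0.144) or Mfsd2a (0.263). Plk3, a stress-responsive kinase, read 7.88 and 7.85 in the Chr4 males, 7.97 and 8.02 in the MSM males, and 7.80 and 7.81 in the B6 males. The Chr4 strain was lower than MSM (-0.131, limma adjusted p = 0.0241) and was not called against B6 (0.0592, limma adjusted p = 0.66). C1qb, a chain of complement C1q made by macrophages, read 8.7997 and 8.8014 in the Chr4 males, 8.7884 and 8.7878 in the MSM males, and 8.7982 and 8.7994 in the B6 males, with limma adjusted p = 0.942 between Chr4 and B6. Mfsd2a, a transporter of lysophospholipids, read 7.90 and 7.88 in the Chr4 males, 7.80 and 7.92 in the MSM males, and 7.76 and 7.74 in the B6 males, and its difference from B6 of 0.138 did not pass (limma adjusted p = 0.534).

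The other strains showed how often chromosome 4 genes were called when chromosome 4 came from B6. For this, B6, the Chr4 strain and the 27 other consomic strains were each compared with the average of the strains with B6 chromosome 4, itself left out; MSM was not among them. The Chr4 strain had 103 chromosome 4 genes called, and B6-Chr9MSM had 25 (3.3%) beside 5.69% of the genes elsewhere. Of the other 26 consomic strains and B6, none had more than 6.

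**Figure D5:**
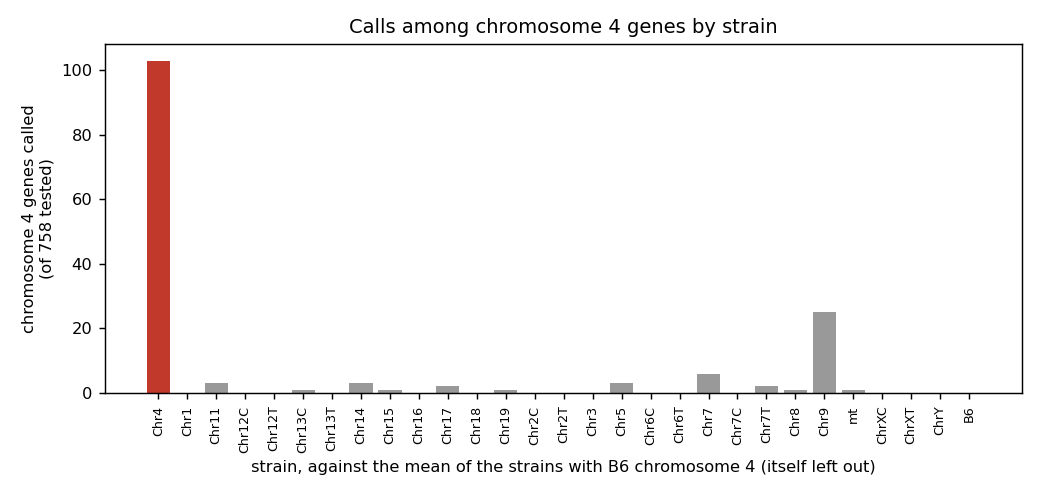
Number of the 758 tested chromosome 4 genes called (y axis) in each strain except MSM (x axis) against the average of the strains with B6 chromosome 4, itself left out. The Chr4 strain stands at 103, Chr9 at 25, and the other strains shown at 0 to 6.

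Elsewhere in the genome, 14 genes were called against B6, 4 higher and 10 lower, or 0.125% of 11191. With quantile normalization 64 were higher and 1 was lower, and none of the 14 was among them (limma); with the second array of each male 27 were higher and 2 lower, and 4 of the 14 were among them. The 6 that were also called against the second reference were Ppp2r5b on chromosome 19, which was higher, and Acly, Kyat1, Rbpj, Serpind1 and Chmp3 on chromosomes 11, 2, 5, 16 and 6, which were lower. Acly, the ATP citrate lyase that supplies cytosolic acetyl-CoA for lipid synthesis, read 9.9057 and 9.9043 in the Chr4 males, 9.9075 and 9.9067 in the MSM males, and 9.9130 and 9.9129 in the B6 males. Both Chr4 males lay below all 56 males, whose lowest was 9.9068. The difference was -0.00795 ± 0.00194 (SE, n = 2 males each, limma adjusted p = 0.0465). Kyat1, a kynurenine aminotransferase, read 9.4281 and 9.4272 in the Chr4 males, 9.4325 and 9.4319 in the MSM males, and 9.4305 and 9.4311 in the B6 males. It was below both parental strains, with limma adjusted p = 0.0465 against B6 and 5.14e-05 against MSM. Serpind1, the thrombin inhibitor heparin cofactor II, differed by -0.00011 from B6 and by -0.000141 from MSM (limma adjusted p = 0.0465 and 0.000265). None of the 14 was called in all 4 fits that left out 1 male (limma), Ppp2r5b alone was called in at least 1 of them, and the sign was kept in all 14. The counts without 1 male were 0 and 1 without B6 male 1 and 2, and 2 and 0 without Chr4 male 1 and 2.

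The pathway lists, chosen with earlier results of these data known, held 0 to 3 called genes each, all on chromosome 4 except Acly and Serpind1; over all genes 0.678% were called, and on chromosome 4 8.84%. List medians are given as deposited and with quantile normalization, beside 0.185 SDs and 3.19 SDs for all tested genes. Medians at or near 0 with quantile normalization can come from unchanged ranks, and they then say nothing on a difference. Among 25 tested PPARA targets and genes of fatty acid oxidation, Cyp4a14 was the single one called, and the median was 0.663 SDs, or 0.0195 SDs with quantile normalization. Acly was the single one of 20 in fatty acid and triglyceride synthesis (median -0.676 SDs, or -0.328 SDs with quantile normalization), and Baat the single one of 21 in bile acid synthesis and transport (median -0.305 SDs, or -7.8e-12 SDs with quantile normalization). Mup3 and C8a were lower among 17 male-biased liver genes (median -0.219 SDs under both settings). Of 30 acute phase genes, Orm1 and Ambp were lower and Orm3 was higher, and of 30 complement and coagulation genes, C8a and Serpind1 were lower (median -0.945 SDs, or 0 with quantile normalization). None of 21 genes of cholesterol synthesis and sterol regulation was called (limma), and 7, all lower, had an unadjusted p below 0.05, beside 9.52% of all genes. In that list 3 genes had positive differences, and the median was -1.71 SDs, or -1.32 SDs with quantile normalization and -1.87 SDs with scaled median centring. No gene was called against B6 among 36 of xenobiotic metabolism, 22 of the fasting and glucocorticoid response, 19 of the circadian clock, 20 NRF2 targets or 27 of endoplasmic reticulum stress and heat shock (limma); none of these 124 genes had an unadjusted p below 0.05 either. Of the marker lists, 13 hepatocyte, 17 Kupffer cell and macrophage genes, 6 lymphocyte, 4 neutrophil, 3 erythroid, 14 stellate cell, 13 endothelial, 3 cholangiocyte, 6 pancreas and 6 adipocyte and muscle genes held no called gene (limma). With an unadjusted p below 0.05, 4 of these 85 genes passed, and the medians of the lists lay between -0.643 and 1.97 SDs, or between -0.991 and 8.57 SDs with quantile normalization.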

How the data were processed

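Liver RNA of 60 males was hybridised to Affymetrix arrays, 2 per male, per the labels' protocols. The values are log2 signals deposited by the authors in 1 table. The array medians were 7.416 to 7.417, but with so small a spread between males they cannot show whether arrays were normalized. The methods of summary and normalization, the log base and the genome build were not given in the sources used here. The values ran from 6.34 to 14.82, and base 2 was inferred from that. Read from the values, deviations look shrunk by factors that differ between probe sets, but this was not tested. Males were identified by the animal number in the titles, which is an assumption, and p-values measure the spread between these males. Arrays carry no counting depth; their number limits the precision. The labels name no batch.

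Of 45037 probe sets, 34945 had 1 gene symbol, 932 several and 9160 none. Each gene was represented by its brightest probe set on average, if at least 2 males exceeded the median of all values (7.417). Symbols, chromosomes and order came from RefSeq's GRCm38.p6, and 45 tested genes without a chromosome were counted as elsewhere. limma 3.58.1 (R 4.3.3) was fitted with 1 mean per strain over 30 strains, leaving 30 residual degrees of freedom (prior degrees of freedom 0.592), since 2 males a strain are too few alone. Alternatives were other normalizations, filters, probe sets, arrays, moderations and samples.

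Named genes were the 12 largest higher and 12 largest lower differences on chromosome 4 and up to 6 in each direction elsewhere, called against both references with both Chr4 males beyond both B6 males; members of the Cyp4a, Cyp2j and Mup families; up to 4 called members of each list; and the 6 largest MSM differences not called in the Chr4 strain. Largest refers to the deposited log2 scale, on which sizes cannot be compared between genes. Mycbp, Atp6v1g1, Gng10, Noc2l, Aldh1b1 and Cd52 met these rules but are not described above. Members and lists were chosen with earlier results of these data known.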

Additional observations from a re-analysis of the deposited data

How the results depend on the processing

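The 67 chromosome 4 and 14 other calls against B6 were recomputed under each alternative. On chromosome 4 the count was 44 at an adjusted p below 0.01, 31 with the first array of each male, 43 with quantile normalization, 1 in a fit on the 2 strains alone, and 34 to 38 without 1 male; under the other alternatives it was 59 to 82. Of the 67 genes, 26 were called in all 4 fits without 1 male, 21 in none, and all kept their sign. Against both references the chromosome 4 count was 44, 31 and 37 under the first 3 of these and 33 to 36 without 1 male. Elsewhere the 14 calls became 0 at 0.01, with the first array and in the 2 strains alone, 29 with the second array, 33 with the male as a random block over all arrays, 5 and 9 with the lowest and middle probe set, 8 without the filter, 9 without moderation and with trend and robust moderation, 7 with p adjusted over all probe sets, 65 with quantile normalization (64 higher and 1 lower), and 0 to 2 without 1 male. The 6 called against both became 0 at 0.01 and with the first array, 23 with the random block, 2 with the lowest probe set, without moderation, with p over all probe sets and with the second array, 31 with quantile normalization, and 0 to 1 without 1 male. Against MSM the 74 chromosome 4 calls became 23 at 0.01, 26 with the first array, 615 with quantile normalization and 20 to 70 without 1 male, and the 2273 elsewhere became 1352, 1257, 9176 and 1178 to 2220. The 355 MSM calls became 234 at 0.01 and 657 with quantile normalization (618 higher and 39 lower). The 25 calls in B6-Chr9MSM, the highest count of the other strains, became 4 at 0.01, 59 with the random block, 3 with the first array and 123 with quantile normalization (122 higher and 1 lower) as the highest count of any such strain. Signs reversed for Noc2l with the lowest or middle probe set (-4.79e-05), Chmp3 with quantile normalization (0.000119), and, among genes not called, C1qb with the middle probe set (-0.00139), Cyp4a12a with scaled centring (-0.00353), Cyp4a31 without B6 male 1 (0.00264, with -0.0054 to 0.00264 over the fits without 1 male), and Mup5 with the first array (0.00011) and quantile normalization (0.000759). The cause was not tested. The fit on the 2 strains alone cannot give the counts against both references, MSM or the other strains. No paired analysis was possible because each animal number in the labels belongs to a single strain, so no number pairs males across strains. Fits without 1 male leave a strain with 1 male, assumed to vary like the other strains.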
